A study of Mus musculus with 7 samples.

Results

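The 8 genes described here make or remove the phosphate and pyrophosphate on which bone mineral depends, or move them across the cell membrane. They are Alpl, Phospho1, Enpp1, Enpp2, Ank, Slc20a1, Slc20a2 and Smpd3. They were taken by gene symbol from the 27179 genes of the count files, all 8 were found, and all 8 were among the 15085 genes that passed the filter on low counts and gene class. RNA was sequenced from femoral cortical bone, flushed of marrow, of 12-week-old female C57BL/6 mice, with 1 library a mouse. There were 3 libraries labelled Dmp1Cre.EfnB2f/f and 4 labelled Dmp1Cre, and the study describes these controls as cousin-bred. In the first genotype both copies of Efnb2, the gene of the membrane ligand ephrinB2, carry loxP sites. Both genotypes carry the Cre recombinase under the Dmp1 promoter, which is active in late osteoblasts and osteocytes, so the control mice carry Cre as well. By this design, cells in which the promoter stays inactive keep their Efnb2, and which cells these are was not tested here. The comparison asks whether RNA of these genes differs in bone when ephrinB2 is removed from the cells that mineralize it.

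Bone mineral forms where inorganic phosphate is high and inorganic pyrophosphate, which blocks crystal growth, is low. Alkaline phosphatase, the product of Alpl, splits pyrophosphate and so both removes the inhibitor and releases phosphate. Enpp1 makes pyrophosphate outside the cell from ATP, and Ank is the membrane protein through which pyrophosphate or its precursor ATP leaves the cell. Phospho1 releases phosphate from phosphocholine inside matrix vesicles, and Smpd3 supplies phosphocholine by splitting sphingomyelin. Slc20a1 and Slc20a2 are the sodium-dependent phosphate transporters PiT-1 and PiT-2. Enpp2, or autotaxin, belongs to the Enpp1 family but acts on lysophospholipids and makes the signalling lipid lysophosphatidic acid.

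The libraries held 17245556 to 22075778 counts on genes. The targeted gene went against the label, since Efnb2 was higher in every library labelled Dmp1Cre.EfnB2f/f (17.9, 13.1 and 11.8 CPM, counts scaled to the TMM-adjusted library total) than in the controls (8.50, 7.93, 6.44 and 6.37 CPM). The log2 difference was 0.96 (SE 0.21, adjusted p = 0.51 by the quasi-likelihood test of edgeR, with p-values adjusted over all genes tested after Benjamini and Hochberg). The counts cover the whole gene, so they include exons outside any deleted stretch and the cells without Cre. In sorted osteocytes of younger mice the study reported effective targeting by PCR of the targeted region, with Efnb2 kept in other cells. The cause of the higher counts here was not tested. Directions below therefore refer to the labels alone. All 12 osteoblast and osteocyte markers were detected in all 7 libraries. None of the markers of the other cell types checked was without counts over the libraries together. The chondrocyte markers Col9a1 and Matn3 did not pass the filter on low counts. The summed erythroid markers reached 6538 to 13330 CPM under the Dmp1Cre.EfnB2f/f label and 15340 to 43180 CPM in the controls, and the neutrophil markers 10370 to 13470 against 15120 to 17110 CPM. Neither of these ranges overlapped between the genotypes. The skeletal muscle markers reached 19290 to 32810 against 9082 to 20690 CPM. Over all 7 libraries the sums of chondrocyte markers ran from 149.8 to 879 CPM, of osteoclast markers from 196 to 1201, of B lineage markers from 164 to 279.7, of endothelial markers from 255 to 397, of adipocyte markers from 55.8 to 188 and of macrophage markers from 269 to 509.9 CPM. Control replicate 1 stood apart in several of them and is followed through the results. Their part in the results below was not tested.

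Promoter sequences of 5 of the 8 genes were held by the RefSeq table of the mouse build GRCm38.p6, and Enpp2, Slc20a2 and Smpd3 had no entry. Each sequence runs from 250 bases before to 50 bases after a transcription start. The 4 below are shown because Alpl and Phospho1 lay close, by root mean square distance, to the sum of the bone cell markers over the libraries while Slc20a1 lay farthest from it, and because Alpl has a pair of starts that differ in base composition. Capitals mark the 6-base GC box GGGCGG and the Runx core TGTGGT, searched on both strands with overlapping matches counted, so that a match on the other strand reads CCGCCC or ACCACA.
Alpl, start 1, chr4:137796335-137796634, minus strand: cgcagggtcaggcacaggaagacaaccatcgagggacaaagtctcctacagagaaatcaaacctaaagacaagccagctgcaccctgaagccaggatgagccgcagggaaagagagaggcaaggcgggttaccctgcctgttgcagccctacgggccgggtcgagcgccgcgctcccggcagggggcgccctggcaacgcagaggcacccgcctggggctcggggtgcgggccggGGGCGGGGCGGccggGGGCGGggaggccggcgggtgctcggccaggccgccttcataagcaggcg
Alpl, start 2, chr4:137766426-137766725, minus strand: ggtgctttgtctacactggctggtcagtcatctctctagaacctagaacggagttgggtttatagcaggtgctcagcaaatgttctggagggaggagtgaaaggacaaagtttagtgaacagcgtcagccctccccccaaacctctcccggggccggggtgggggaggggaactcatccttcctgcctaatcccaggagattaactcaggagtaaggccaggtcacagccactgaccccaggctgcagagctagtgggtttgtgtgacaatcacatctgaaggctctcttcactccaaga
Phospho1, chr11:95824250-95824549, plus strand: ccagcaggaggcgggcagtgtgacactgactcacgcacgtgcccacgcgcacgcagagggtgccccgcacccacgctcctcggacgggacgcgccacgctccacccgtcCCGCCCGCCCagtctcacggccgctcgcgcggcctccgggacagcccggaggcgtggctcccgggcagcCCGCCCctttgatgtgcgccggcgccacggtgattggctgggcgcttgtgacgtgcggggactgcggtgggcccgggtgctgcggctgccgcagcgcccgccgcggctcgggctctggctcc
Slc20a1, start 1, chr2:129198523-129198822, plus strand: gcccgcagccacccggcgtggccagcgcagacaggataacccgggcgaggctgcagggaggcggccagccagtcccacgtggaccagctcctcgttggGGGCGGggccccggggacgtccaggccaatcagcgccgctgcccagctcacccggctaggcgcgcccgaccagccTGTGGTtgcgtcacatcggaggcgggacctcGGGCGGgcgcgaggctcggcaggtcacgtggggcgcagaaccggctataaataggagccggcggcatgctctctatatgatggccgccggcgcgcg
The first Alpl start was 70.0% G or C and held 3 GC boxes, of which a pair overlap by their last and first base. The second Alpl start was 54.3% G or C and held neither motif. Phospho1 was 77.0% G or C with 3 GC boxes, and the first Slc20a1 start was 73.0% with 2 GC boxes and 1 Runx core. The promoters not printed were those of Ank (2 GC boxes), of Enpp1 (61.7% G or C, 1 GC box and 1 Runx core) and the second Slc20a1 start (52.0%, 1 GC box). Of all 32851 promoters of this length, 35.7% held a GC box and 16.8% the Runx core, and their median content of G or C was 52.7%. A match is a run of letters and was not tested as a binding site.

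Levels of different genes were set side by side per length, as CPM per kilobase of exon (RPKM), averaged over the 7 libraries. Alpl and Ank stood at the top, at 42.5 ± 22.7 and 39.3 ± 4.98 RPKM (SD, n = 7), above 89.6% and 88.4% of the genes tested. Slc20a1 followed at 30.5 ± 5.45 RPKM and Slc20a2 at 15.7 ± 2.07 RPKM. Smpd3 reached 13.5 ± 8.39, Enpp1 8.91 ± 2.48 and Phospho1 8.29 ± 3.94 RPKM. Enpp2 was the lowest at 3.80 ± 1.57 RPKM, above 29.7% of the genes tested. The alkaline phosphatase and the pyrophosphate exporter were thus the most abundant transcripts of the set per length, and the pyrophosphate-making Enpp1 lay in its lower part.

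**Figure D1:**
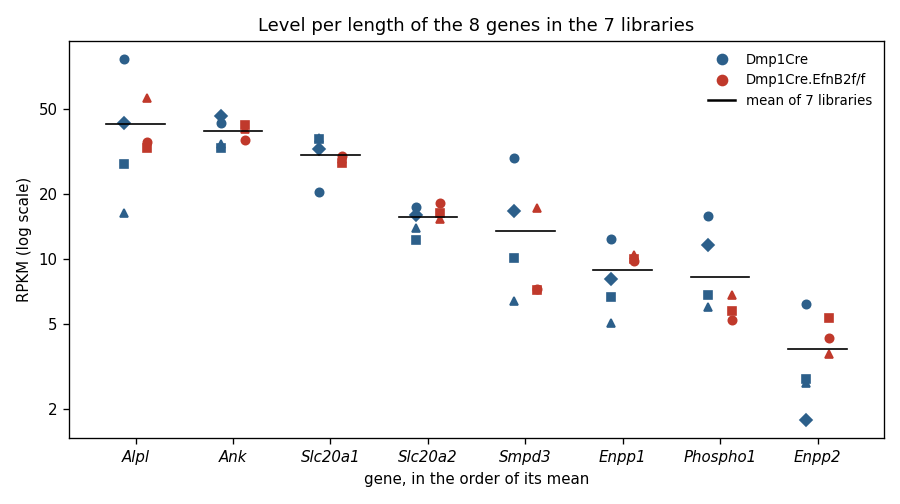
Level of each of the 8 genes in RPKM on a log axis, with 1 point for each of the 7 libraries (blue Dmp1Cre, red Dmp1Cre.EfnB2f/f, shapes for the replicate) and a bar at the mean of all 7, in order of the mean. Alpl and Smpd3 are spread widely and Ank, Slc20a1 and Slc20a2 narrowly, and Enpp2 is lowest at 3.80 RPKM.

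Most neighbours in this order did not separate beyond their spread. Alpl exceeded Ank in 2 of 7 libraries, with a mean log2 ratio of -0.05 ± 0.65 (SD), and its place at the top rested on control replicate 1 and on the scale of the mean. In an exact paired permutation test over the 7 libraries, two-sided and adjusted over the 7 neighbouring pairs, the adjusted p was 0.844 for this pair. Slc20a1 exceeded Slc20a2 in 7 of 7 libraries by 0.95 ± 0.44 (SD) on the log2 scale, and Phospho1 exceeded Enpp2 in 7 of 7. Both had the smallest p that 7 pairs allow in the exact permutation test, 0.0156, and an adjusted p of 0.0547. The neighbours were taken from the order of these same values. With only these pairs at the smallest p, the adjusted p could not fall under 0.05. For the other 4 pairs the adjusted p in the exact permutation test ran from 0.146 to 0.547. A pair picked out after its values were seen, Enpp1 and Phospho1, changed places with the label. Enpp1 was the higher of the pair per length in all 3 libraries of the Dmp1Cre.EfnB2f/f label and the lower in all 4 controls.

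Alpl varied more than it differed between the genotypes. Its gene lies at chr4:137741731-137796384 in mm10, and the counts are of its exons. Alpl stood at 88.5, 83.0 and 141 CPM under the Dmp1Cre.EfnB2f/f label, while the 4 controls held 216, 69.6, 41.4 and 108.5 CPM. The controls enclosed the other group, with replicate 1 highest and replicate 3 lowest of all 7. Means were 104 ± 32.04 (SD, n = 3) and 109 ± 76.4 CPM (SD, n = 4). The log2 fold change against Dmp1Cre was -0.06 (SE 0.50, 95% interval -1.19 to 1.07, adjusted p = 0.960 by edgeR). Without control replicate 1 it was 0.51 (adjusted p = 0.584 by edgeR). Without replicate 1 or 2 labelled Dmp1Cre.EfnB2f/f it was also positive, at 0.0440 and 0.0906, so the sign rested on single libraries of either group. The interval allows both a doubling and a halving of Alpl RNA at this number of mice. In RNA of whole bone, fewer cells of a type and less RNA per cell cannot be told apart, for Alpl and for the genes that follow.

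Phospho1, on chr11:95824500-95832140, had the lowest p of the 8. It held 9.96, 10.9 and 13.0 CPM under the Dmp1Cre.EfnB2f/f label and 30.2, 13.0, 11.5 and 22.3 CPM in the controls. Replicates 1 and 2 of the first group lay below all 4 controls, while replicate 3 lay just above the second and the third control, so the groups overlapped. Means were 11.3 ± 1.57 (SD, n = 3) and 19.2 ± 8.71 CPM (SD, n = 4). The log2 fold change was -0.77 (SE 0.34, 95% interval -1.55 to 0.01, adjusted p = 0.51 by edgeR), and without control replicate 1 it was -0.46 (adjusted p = 0.533 by edgeR). The annotated span of Phospho1 overlaps that of Abi3, which held 434 to 786 counts a library, and the strand setting of the counting is not given in the sources used here. Reads from the shared stretch may thus have been counted for either gene or left out.

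Smpd3, the neutral sphingomyelinase of the plasma membrane at chr8:106252548-106337965, was also highest in control replicate 1. It held 37.3, 36.8 and 88.6 CPM under the Dmp1Cre.EfnB2f/f label and 152, 52.3, 32.9 and 86.2 CPM in the controls. The third control was the lowest of all 7 and the first control the highest, and replicate 3 of the other group was more than both its fellows together. Group means were 54.2 ± 29.8 and 80.8 ± 52.3 CPM (SD, n = 3 and n = 4). On the log2 scale the difference was -0.58 (SE 0.53, 95% interval -1.78 to 0.63, adjusted p = 0.640 by edgeR). It was -0.08 without control replicate 1 and -1.13, -0.37 and -0.35 without replicates 3, 1 and 2 labelled Dmp1Cre.EfnB2f/f, so the size of the difference rested on single libraries.

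**Figure D2:**
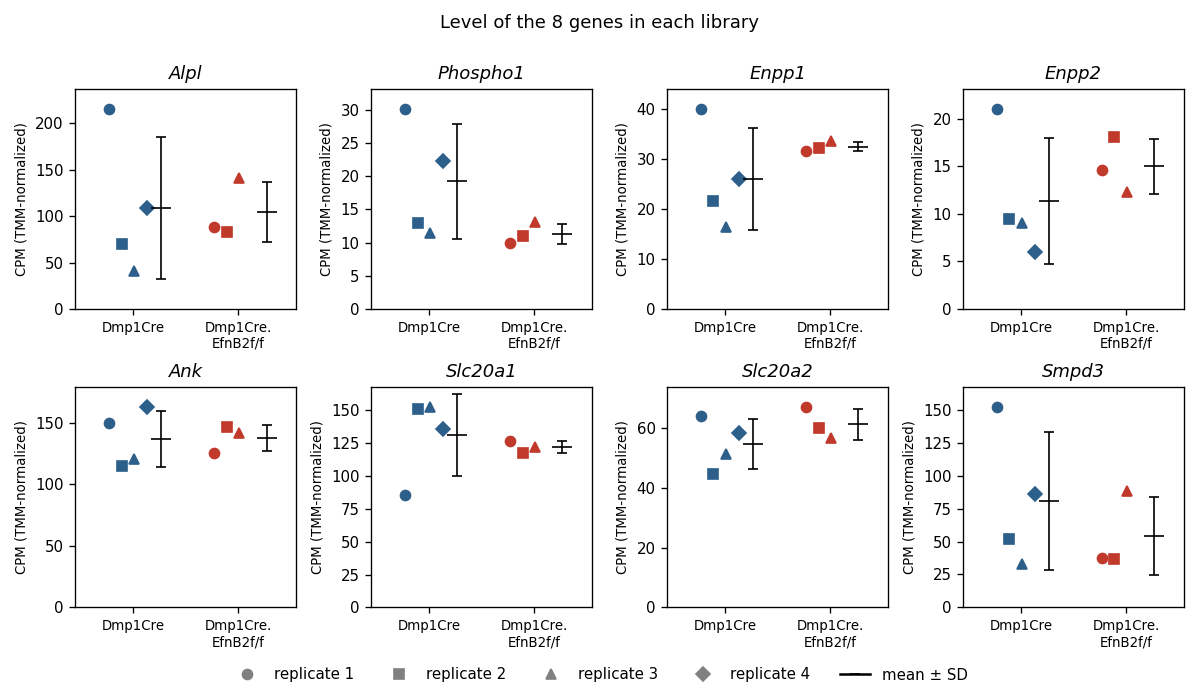
CPM (TMM-normalized) of the 8 genes in each library, 1 panel a gene with its own axis from 0, with points for the replicates and bars for the mean ± SD of the 4 Dmp1Cre and the 3 Dmp1Cre.EfnB2f/f libraries. The groups overlap in all 8 panels, and control replicate 1 is the highest library for Alpl, Phospho1, Enpp1, Enpp2 and Smpd3 and the lowest for Slc20a1.

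The genes on the side of pyrophosphate supply had higher or equal means under the Dmp1Cre.EfnB2f/f label. Enpp1, on chr10:24637914-24712159, held 31.6, 32.2 and 33.5 CPM there and 40.0, 21.6, 16.3 and 26.0 CPM in the controls. The 3 values lay within 1 narrow band above all controls but the first. Means were 32.4 ± 0.953 (SD, n = 3) and 26.0 ± 10.2 CPM (SD, n = 4), with a log2 fold change of 0.32 (SE 0.28, 95% interval -0.32 to 0.96, adjusted p = 0.627 by edgeR). Without control replicate 1 the log2 fold change was 0.61 (adjusted p = 0.403 by edgeR), and without control replicate 3 it was 0.15 (adjusted p = 0.721 by edgeR).

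Enpp2, at chr15:54838901-54952789, showed the same arrangement at a lower level. It held 14.6, 18.1 and 12.2 CPM under the Dmp1Cre.EfnB2f/f label and 21.0, 9.42, 9.02 and 6.04 CPM in the controls. Again the first control was the highest of all 7 and the other 3 controls lay below the whole of the other group. The log2 fold change was 0.39 (SE 0.39, 95% interval -0.50 to 1.29, adjusted p = 0.661 by edgeR), and 0.88 without control replicate 1 (adjusted p = 0.369 by edgeR). It was 0.18 without control replicate 4 and 0.24 without replicate 2 labelled Dmp1Cre.EfnB2f/f, so its size rested on single libraries. Enpp1 and Enpp2 are related in sequence, and how reads matching both were counted is not given in the sources used here.

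Ank, at chr15:27466677-27594909, had the narrowest range of the 8. It held 126, 146.5 and 142 CPM under the Dmp1Cre.EfnB2f/f label and 149.7, 115, 120.5 and 163 CPM in the controls, with means of 138 ± 10.7 (SD, n = 3) and 137 ± 23.0 CPM (SD, n = 4). Controls formed both the top and the bottom of the range. The difference on the log2 scale was 0.01 (SE 0.18, 95% interval -0.39 to 0.41, adjusted p = 0.983 by edgeR), a far narrower interval than that of Alpl.

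Both phosphate transporters were abundant and differed little. Slc20a1, at chr2:129198773-129211615, held 126, 117 and 122 CPM under the Dmp1Cre.EfnB2f/f label and 85.6, 150.4, 152 and 136 CPM in the controls. It was the reverse of the arrangement of Enpp1 and Enpp2, with the first control lowest and the other 3 controls above the whole of the other group. The log2 fold change was -0.11 (SE 0.22, 95% interval -0.60 to 0.39, adjusted p = 0.83 by edgeR). Without control replicate 1 it was -0.26 (adjusted p = 0.524 by edgeR), while without control replicate 2 or 3, or replicate 2 labelled Dmp1Cre.EfnB2f/f, it was -0.0311, -0.0240 and -0.0684.

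Slc20a2, at chr8:22476700-22569616, held 66.9, 60.0 and 56.5 CPM under the Dmp1Cre.EfnB2f/f label and 63.9, 44.7, 51.1 and 58.4 CPM in the controls. Replicate 1 of the first group was the highest of all 7, and the rest were interleaved. Its log2 difference was 0.16 (SE 0.17, 95% interval -0.22 to 0.55, adjusted p = 0.674 by edgeR). It was 0.25 without control replicate 1, 0.0814 without control replicate 2 and 0.0969 without replicate 1 labelled Dmp1Cre.EfnB2f/f. The annotated span of Slc20a2 overlaps the end of Smim19, which held 186 to 276 counts a library.

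None of the 8 genes passed an adjusted p of 0.05 in edgeR's quasi-likelihood test in either direction, against 0% of all genes higher and 0% lower. At an unadjusted p under 0.05 the count was also 0 of 8 in edgeR, against 4.63% of all genes higher and 5.03% lower, and DESeq2 likewise called 0 of 8 at an adjusted p of 0.05, against 0.477% of all genes, and 1 of 8, Phospho1, at an unadjusted one, against 12.5%. The CPM of the genotypes overlapped for 8 of 8, where 11.3% of all genes did not overlap. Of the 8 log2 fold changes 4 were positive and 4 negative, with a median of -0.03 beside 0.01 over all genes tested.

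**Figure D3:**
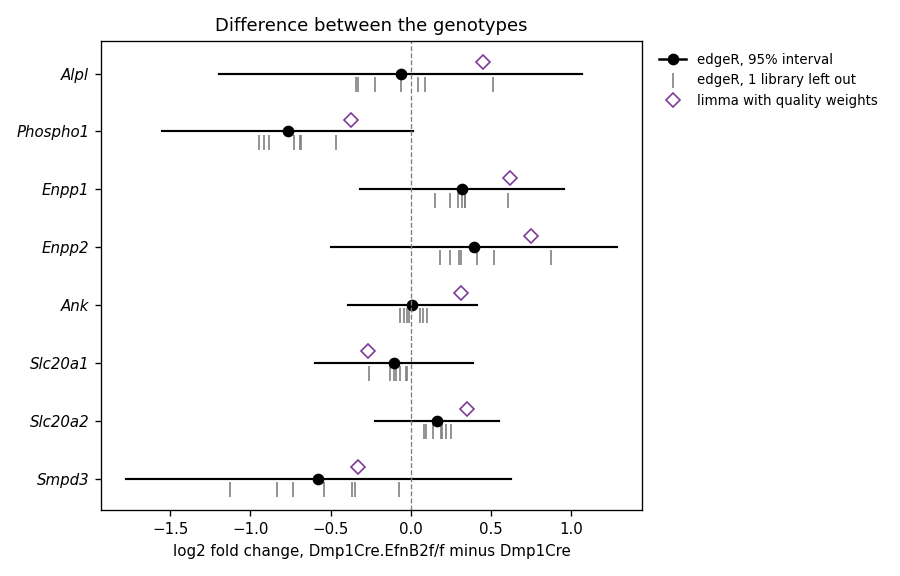
Log2 fold change of each of the 8 genes, libraries labelled Dmp1Cre.EfnB2f/f against Dmp1Cre, from edgeR, with its 95% interval as a bar and a line at 0. All 8 intervals include 0, that of Phospho1 only just, and those of Alpl and Smpd3 are the widest.

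The calls depended on the pipeline and on whether its libraries were weighted. The limma pipeline with an array quality weight for each library, run without the study's block for day because the labels give no day, called 4 of the 8 genes higher under the Dmp1Cre.EfnB2f/f label and 0 lower. Of all genes it called 7.54% higher and 7.41% lower. The 4 were Enpp1 (log2 fold change 0.62, adjusted p = 0.0219 by limma), Enpp2 (0.75, adjusted p = 0.0219 by limma), Ank (0.31, adjusted p = 0.0460 by limma) and Slc20a2 (0.35, adjusted p = 0.0368 by limma). The study, with its block for day, reported that Phospho1, Enpp1 and Enpp2 were not differentially expressed. The calls of Enpp1 and Enpp2 here thus differ from the published ones. The weights were 1.39, 7.30 and 0.712 under the Dmp1Cre.EfnB2f/f label and 0.193, 3.26, 1.32 and 0.168 for the 4 controls. The controls with the least weight, replicates 1 and 4, are those with the highest sum of osteoblast and osteocyte markers, mostly Col1a1 and Col1a2. The single markers were mixed. Control replicate 4 was second to replicate 1 for Col1a1, Col1a2, Bglap and Bglap2, but lowest of all libraries for Ibsp (169 CPM) and Phex (42.5 CPM). Without weights limma called 0 of the 8. In limma-voom, another limma pipeline with quality weights, 0 of the 8 passed an adjusted p of 0.05 in either direction. The adjusted p by limma-voom was 0.0703 for Enpp1, 0.0835 for Enpp2, 0.281 for Ank and 0.1205 for Slc20a2. Only 1 cross of parents gave mice of both genotypes, replicate 3 of each, and a fit blocked on the cross rests on this pair. Its log2 fold changes were 1.77 for Alpl, 1.43 for Smpd3, 1.04 for Enpp1, 0.44 for Enpp2, 0.23 for Ank, 0.18 for Phospho1, 0.14 for Slc20a2 and -0.32 for Slc20a1, with adjusted p = 1.00 by edgeR for each.

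Over the 7 libraries Smpd3, Phospho1 and Alpl lay closest to the sum of the bone cell markers, which is mostly collagen RNA. The 12 osteoblast and osteocyte markers, mostly the type I collagen chains Col1a1 and Col1a2, summed to 15100, 18050 and 24690 CPM under the Dmp1Cre.EfnB2f/f label and to 71980, 14460, 14730 and 35600 CPM in the controls. Not all single markers followed this sum. Ibsp and Phex were highest in replicate 1 labelled Dmp1Cre.EfnB2f/f, at 532 and 133 CPM, and Dmp1, Mepe and Sost were second highest there. Control replicate 1 was the highest library for 10 of the 12 markers and for 5 of the 8 genes, against 14.0% of all genes. It held 2.95 times the mean of the other controls for Alpl, 2.66 for Smpd3, 2.58 for Enpp2, 1.94 for Phospho1 and 1.88 for Enpp1. Slc20a1 alone of the 8 was lowest there, at 0.586 times that mean, against 18.9% of all genes lowest in this library. In that library the sums of chondrocyte, osteoclast, adipocyte and macrophage markers were also the highest of the 7. The part of these cells in the result was not tested.

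**Figure D4:**
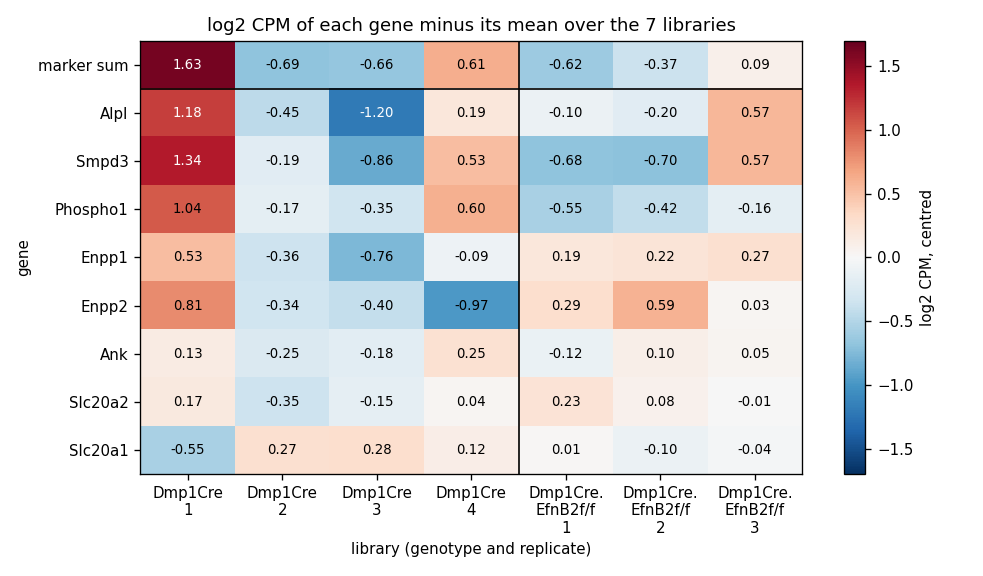
Log2 CPM of the 8 genes and of the summed osteoblast and osteocyte markers in each of the 7 libraries, each centred on its own mean over the libraries. Smpd3, Phospho1 and Alpl lie closest to the marker sum, all highest in control replicate 1, while Slc20a1 is lowest there at -0.55.

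Root mean square differences between centred log2 CPM described this nearness, a measure that counts the size of a gene's swings as well as their direction. The distance to the marker sum was 0.32 for Smpd3, 0.34 for Phospho1 and 0.43 for Alpl, then 0.64 for Enpp1, 0.68 for Ank, 0.74 for Slc20a2, 0.86 for Enpp2 and 1.02 for Slc20a1. Among the 8, the closest pair was Ank and Slc20a2 at 0.16, and the most distant were Slc20a1 and Smpd3 at 0.96. Alpl lay 0.36 and Phospho1 0.38 from Smpd3. In all 4 controls Ank had swings of the same sign as the marker sum. They were 0.13, -0.25, -0.18 and 0.25 against 1.63, -0.69, -0.66 and 0.61. Under the Dmp1Cre.EfnB2f/f label Ank stood at -0.12, 0.10 and 0.05 against -0.62, -0.37 and 0.09, so replicate 2 differed in sign. Ank also had a smaller range than the marker sum, which adds to its distance. These values share the same 7 libraries and their depth.

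Setting the 3 closest genes against the marker sum narrowed their range. They were picked by their nearness to that same sum, so the narrowing follows in part from the choice. The ratio of the highest to the lowest library fell from 5.21 to 2.09 for Alpl, from 4.62 to 1.78 for Smpd3 and from 3.03 to 2.15 for Phospho1. The other 5 are not read this way, since dividing a gene of small range by a sum of wide range widens it whatever its direction. In CPM their ratios were 3.49 for Enpp2, 2.46 for Enpp1, 1.78 for Slc20a1, 1.497 for Slc20a2 and 1.42 for Ank. For all 11951 genes at a mean of at least 5 CPM the median ratio in CPM was 1.85. Alpl exceeded 97.3% and Smpd3 96.5% of these genes, while Ank exceeded 16.6% and Slc20a2 23.1%. Scaled to the marker counts, Alpl stood at 0.587%, 0.460% and 0.571% of the marker sum under the Dmp1Cre.EfnB2f/f label and at 0.299%, 0.482%, 0.281% and 0.305% in the controls. The groups still overlapped, with control replicate 2 above replicate 2 of the other group.

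Ratios of genes within a library, which no library scaling can alter, were given per length. In the 5 pairs chosen by function they overlapped between the genotypes. Alpl to Enpp1, removal against production of pyrophosphate, was 3.59, 3.31 and 5.40 under the Dmp1Cre.EfnB2f/f label and 6.91, 4.14, 3.25 and 5.35 in the controls. The first control again held the highest value. Alpl to Ank was 0.978, 0.788 and 1.39 against 2.00, 0.841, 0.477 and 0.926. Phospho1 to Smpd3 was 0.720, 0.801 and 0.397 against 0.535, 0.671, 0.942 and 0.696, with Smpd3 the higher of the pair in all 7 libraries. Slc20a1 to Slc20a2 was 1.66, 1.71 and 1.90 against 1.18, 2.96, 2.61 and 2.04. That ratio kept within a narrow band in the first group, and the controls spread to either side of it. Enpp1 to Enpp2 ran from 1.88 to 4.54 over all 7 libraries.

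Among all 28 pairs of the 8 genes, 5 ratios did not overlap between the genotypes, and they are named after their values were seen. Of these, 4 hold Phospho1. Enpp1 to Phospho1 was 1.88, 1.75 and 1.52 under the Dmp1Cre.EfnB2f/f label and 0.786, 0.982, 0.840 and 0.692 in the controls. Ank to Phospho1 was 6.91, 7.32 and 5.93 against 2.71, 4.83, 5.73 and 3.997, and Alpl to Phospho1 was 6.75, 5.77 and 8.22 against 5.43, 4.06, 2.73 and 3.70. Phospho1 was thus low relative to each of these genes in the first group. Phospho1 to Enpp2 was 1.21, 1.08 and 1.89 against 2.55, 2.46, 2.26 and 6.56. The fifth, Alpl to Smpd3, was 4.86, 4.62 and 3.26 against 2.90, 2.73, 2.58 and 2.58. The pairs share genes, no test was made of them, and the share among ratios of other genes was not computed.

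Other genes of the same pathways were read from 6 lists, and none in any list passed an adjusted p of 0.05 by edgeR. Of 9 other phosphate carriers 4 passed the filter, and 0 had an unadjusted p under 0.05. The kidney and intestinal transporters Slc34a1, Slc34a2 and Slc34a3, with Slc17a1 and Slc17a3, did not pass it, which leaves Slc20a1 and Slc20a2 as the sodium-phosphate transporters tested in this bone. The lowest p was that of the sialic acid carrier Slc17a5 (18.5 ± 1.89 against 15.3 ± 1.84 CPM, SD). Xpr1, the phosphate exporter, named after its values were seen, reached 14.2 RPKM on average.

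Of 20 other hydrolases of nucleotides and phosphate esters 15 passed the filter. Beside 4.63% of all genes higher and 5.03% lower at an unadjusted p under 0.05 by edgeR, 1 of these 15 was higher. This was Enpp4, which splits dinucleotides. It held 49.9, 48.8 and 47.4 CPM under the Dmp1Cre.EfnB2f/f label and 28.1, 36.5, 45.5 and 34.6 CPM in the controls. The groups did not overlap, as for 11.3% of all genes, and the log2 fold change was 0.43 (SE 0.18, adjusted p = 0.51 by edgeR). The other alkaline phosphatases Alpi, Alppl2 and Akp3 did not pass the filter, nor did Enpp7 and Abcc6, so Alpl was the alkaline phosphatase gene tested. Of 14 enzymes and carriers of sphingomyelin and phosphocholine all passed the filter, 7 were higher and 7 lower, and 0 had an unadjusted p under 0.05. The lowest p there belonged to the neutral ceramidase Asah2, at 24.4 ± 6.09 against 17.8 ± 4.22 CPM (SD).

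Among 9 receptors and phosphatases of lysophosphatidic acid, the product of Enpp2, 1 was lower at an unadjusted p under 0.05, beside 5.03% of all genes. This was the receptor Lpar5, at 1.84, 2.09 and 2.58 CPM under the Dmp1Cre.EfnB2f/f label and 3.78, 2.85, 2.70 and 4.90 CPM in the controls, with a log2 fold change of -0.71 (SE 0.29, adjusted p = 0.51 by edgeR). Lpar5 and Lpar2, the latter named after its values were seen, did not overlap between the genotypes, 2 of 9 beside the 11.3% of all genes. Of 9 tested genes for zinc loading and the GPI anchor of alkaline phosphatase, 6 had lower means. At an unadjusted p under 0.05 by edgeR 1 of the 9 was lower, again beside 5.03% of all genes. That gene was the anchor mannosyltransferase Pigv, at 18.7, 17.1 and 19.8 against 25.3, 22.7, 21.9 and 25.7 CPM, with a log2 fold change of -0.37 (SE 0.15, adjusted p = 0.51 by edgeR). The groups did not overlap for Pigv and for Pigo, the latter named after its values were seen, again 2 of 9 beside 11.3%. The list's median log2 fold change was -0.30, beside 0.01 over all genes. Of the 4 tested annexins of matrix vesicles and mineral inhibitors 0 had an unadjusted p under 0.05, and Anxa2 came nearest at 173 ± 24.3 against 247 ± 73.9 CPM (SD). Ahsg, the liver's fetuin-A, did not pass the filter.

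For each of the 8, the tested genes of at least 5 CPM with the most similar centred log2 CPM over the 7 libraries were found by root mean square difference. For Alpl these were Islr (0.07), Clec11a (0.16) and Col11a2 (0.16). Smpd3 had Bgn, the matrix proteoglycan biglycan (0.19), Gpr153 (0.19) and Pcsk6 (0.24), and Phospho1 had Chst13 (0.07), Jund (0.14) and Tpgs1 (0.14). Smpd3 thus had the least close neighbours of the 8. Enpp1 lay nearest to Fgd1 (0.08), Slc2a13 (0.08) and Parva (0.09), and Enpp2 to Camk2n1 (0.14), Klhl29 (0.16) and Pdgfra (0.16). Ank lay nearest to Gpi1 (0.04), Elp3 (0.04) and Tpst1 (0.05). Slc20a1 lay nearest to C530008M17Rik (0.03), Rbm43 (0.06) and Knstrn (0.07), and Slc20a2 to Ptch1 (0.04), Prkce (0.06) and Mef2d (0.06). With 7 libraries and 11950 genes searched, close neighbours arise for any gene of small spread.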

How the data were processed

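The authors aligned paired reads from TruSeq libraries of mouse femoral cortical bone to mm10 with Rsubread and deposited raw counts per gene from featureCounts over its inbuilt exon annotation, with gene lengths. The strand setting and most versions are not given in the sources used here, and the submitters' processing notes name bcl2fastq 2.17.1.14. The single files and the series table held the same counts. Depth was 17245556 to 22075778 counts a library.

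Groups came from the labels. Each library is 1 mouse, so p-values measure the spread between these mice, some of which share a parent cross. The main fit treats them as independent. Only the cross of replicate 3 gave both genotypes, so for the other mice cross and genotype cannot be told apart. Of 27179 genes the 16302 that reached 0.65 CPM in 3 or more libraries were kept, and immunoglobulin, unnamed, predicted, pseudogene, ribosomal RNA, Y-linked and Xist genes were left out, leaving 15085. edgeR 4.0.16 (R 4.3.3, TMM, robust quasi-likelihood test) compared the genotypes, with Benjamini-Hochberg adjustment over all genes tested and a threshold of 0.05. CPM used the TMM library sizes, and RPKM also the deposited lengths. DESeq2 1.42.0, limma 3.58.1 and other filters and scalings were alternatives, and the fits were tested on simulated data. With no gene changed, DESeq2 made 11 false calls, and the edgeR, limma and limma-voom fits made 1 each. All simulated libraries were of equal quality, so the simulation could not test the quality weights. The 8 genes, the marker lists and the 6 pathway lists were chosen with earlier results of these data known. Named besides the 8 and Efnb2 were the genes of each list at an unadjusted p under 0.05, or the one of lowest p, and the 3 genes closest to each of the 8, and names outside this rule are marked as chosen after their values were seen. The study blocked on day of collection, which the labels do not give, so that block was not used here. The counts of 25275 genes were matched to the RefSeq table for spans and overlaps. Promoters are those of RefSeq, build GRCm38.p6.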

Additional observations from a re-analysis of the deposited data

How the results depend on the processing

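With 3 and 4 mice the intervals of the 8 log2 fold changes all include 0. Each interval holds the differences that the data allow and is not a limit of detection. edgeR called 0 genes higher and 0 lower, with 1458 at an unadjusted p under 0.05. DESeq2 called 24 higher and 48 lower, limma-voom with weights 27 and 31, and the weighted limma pipeline 1137 and 1118. Scaling to the marker counts, which shifts the median of all genes to 0.28, called 1 lower. At an unadjusted p the counts were 4962 with weighted limma, 3556 with limma-voom and 121 with marker scaling. Leaving out 1 library at a time gave 0 to 1 genes higher, 0 to 2 lower and 426 to 2368 at an unadjusted p.

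Of the 8 genes, weighted limma called 4 higher, at 0.62 for Enpp1, 0.75 for Enpp2, 0.31 for Ank and 0.35 for Slc20a2. Limma-voom with weights called 0 of the 8 at an adjusted p under 0.05. The number at an unadjusted p under 0.05 was 1 with RLE size factors (10.2% of all genes), 1 with DESeq2 (12.5%), 1 with no filter on low counts (8.49%), 6 with weighted limma (32.9%), 4 with limma-voom (23.6%) and 0 to 2 with 1 library left out (2.85% to 15.8%). Without control replicate 1 the 2 were Enpp1 and Enpp2.

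Alpl changed sign, to 0.0448 on library size alone, 0.66 with marker scaling, 0.45 with weighted and 0.21 with unweighted limma and 0.51 with limma-voom, and ran from -0.34 to 0.51 with 1 library left out. Ank was -0.0135 with RLE size factors, -0.0136 with DESeq2 and -0.0643 to 0.10 with 1 library left out. Slc20a1 was 0.0366 with marker scaling and 0.00546 with unweighted limma, and Smpd3 0.0566 with marker scaling. In CPM in place of RPKM, 3 of the 8 genes kept their place in the order of levels. The cause of these changes was not tested.

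The deviations of same-numbered mice of both genotypes correlated at -0.145, 0.0626 and -0.419, so equal numbers did not mark mice that deviated together. The replicate 3 mice, at -0.419, nevertheless share a parent cross. Over all 12 pairs the correlations ran from -0.483 to 0.479, the highest between replicate 3 labelled Dmp1Cre.EfnB2f/f and control replicate 4. With the replicate number as a block, edgeR called 1 gene higher and 577 at an unadjusted p, and Alpl was 0.24. It called none of the 8. With the parent cross as a block 306 genes had an unadjusted p under 0.05, and Alpl (1.77), Phospho1 (0.18) and Smpd3 (1.43) changed sign.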

Other observations

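Some genes outside the 8 varied over the libraries in the way of Alpl, and are given here after their values were seen. Acp5, the tartrate-resistant acid phosphatase of osteoclasts, held 712.5 CPM in control replicate 1, 118 to 299 CPM in the other 3 controls and 265 to 324 CPM under the Dmp1Cre.EfnB2f/f label. Mgp, matrix Gla protein, an inhibitor of mineral, held 109 CPM in the same control and 26.8 to 54.3 CPM in the other 6 libraries. Entpd3, an ectonucleotidase that removes phosphate from ATP, held 65.9 CPM there and 18.2 to 46.2 CPM elsewhere. The lysophosphatidic acid receptor Lpar6 did the reverse, at 14.2 and 15.5 CPM in control replicates 1 and 4 and 33.3 to 41.1 CPM in the other 5 libraries. None of the 4 had an unadjusted p under 0.05 between the genotypes in edgeR.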
